A study of Mus musculus with 4 samples.

Results

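The genes described here are 30 enzymes and control proteins of amino acid breakdown in mouse quadriceps, the large thigh muscle. They were chosen by symbol: the steps that break down the branched-chain amino acids leucine, isoleucine and valine, the use of the propionate that results, the use of ketone bodies, and the main aminotransferases of alanine and aspartate with Glud1 and Oat. All 30 symbols matched a row of the deposited tables, which list 55573 gene IDs, and all 30 had a count in every library, from 91 to 4138 reads. The study compared 2 libraries of wild-type (WT) C57BL/6J mice with 2 of B6.129S4-Vdrtm1Mbd/J mice (labelled vdr-/-), a knockout strain in which the vitamin D receptor, a nuclear receptor for the active form of vitamin D, is disrupted. Quadriceps was taken at 7 weeks of age from mice weaned at 21 days and fed regular chow without limit, and sex is not given. The allele is carried in every tissue, so an effect within muscle and one that reaches it from elsewhere in the body cannot be told apart. The question that the series title names is the choice of fuel in muscle.

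Branched-chain amino acids are broken down largely outside the liver, and muscle is a major place of their first step. The mitochondrial aminotransferase BCAT2 moves their amino group to 2-oxoglutarate, and the branched-chain keto acid dehydrogenase complex (BCKDH) then removes a carboxyl group in a step that commits the carbon to breakdown. A kinase, BCKDK, phosphorylates and restrains this complex and a phosphatase, PPM1K, releases it. Separate mitochondrial enzymes carry the leucine, valine and isoleucine skeletons on, and isoleucine and valine yield propionyl-CoA, which a biotin-dependent carboxylase and a cobalamin-dependent mutase turn into succinyl-CoA. The amino groups leave muscle mostly as alanine and glutamine, so the alanine aminotransferases GPT and GPT2 lie next to this route.

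The promoters printed here were chosen because they belong to the called genes Bcat2 and Pccb and to Pcca, which encodes the partner subunit of Pccb and differed little between the groups. Each is the 250 bases before a RefSeq start on build GRCm38.p6, written 5′ to 3′ on the gene's strand, for Bcat2 at chr7:45569903-45570152 (plus strand), for Pccb at chr9:101034885-101035134 (minus) and for Pcca at chr14:122534078-122534327 (plus). Bcat2 and Pcca each have a second listed start that is not shown. Capitals mark matches to the motifs searched on both strands.
Bcat2: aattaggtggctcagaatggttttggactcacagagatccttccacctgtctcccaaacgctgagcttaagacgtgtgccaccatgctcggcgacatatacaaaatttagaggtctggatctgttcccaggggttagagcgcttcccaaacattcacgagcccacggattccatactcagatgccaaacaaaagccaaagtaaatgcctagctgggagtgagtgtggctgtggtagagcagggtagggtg
Pccb: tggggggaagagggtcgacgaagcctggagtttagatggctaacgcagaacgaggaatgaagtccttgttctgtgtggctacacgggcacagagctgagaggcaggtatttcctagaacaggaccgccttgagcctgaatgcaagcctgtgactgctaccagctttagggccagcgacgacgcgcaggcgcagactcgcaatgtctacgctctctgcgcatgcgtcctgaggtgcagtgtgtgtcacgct
Pcca: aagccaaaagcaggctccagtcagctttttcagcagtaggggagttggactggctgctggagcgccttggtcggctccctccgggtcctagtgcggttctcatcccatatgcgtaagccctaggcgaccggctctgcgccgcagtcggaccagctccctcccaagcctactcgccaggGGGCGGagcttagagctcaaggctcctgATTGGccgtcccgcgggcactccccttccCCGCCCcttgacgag

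The letters searched were the GC box GGGCGG, the CCAAT box CCAAT, the TATA box TATAAA, the E-box CACGTG, the nuclear receptor motif AGGTCA and the estrogen-related receptor motif AAGGTCA, which contains it. The direct repeat with a 3-base spacer to which the vitamin D receptor binds with its partner RXR was searched as well. In the windows shown, Bcat2 and Pccb held none of these motifs, and Pcca held 2 GC boxes and 1 CCAAT box. At the starts not shown, Bcat2 again held none, and Pcca held 1 CCAAT box, 1 nuclear receptor motif and no GC box. Of the 30 genes, 26 had a promoter in the table, with 31 starts between them. Gpt was not among the 26. A GC box was found at 51.6% of the 31 starts and at 32.7% of all 32851 promoters of the table, which also hold those of noncoding genes, and a CCAAT box at 54.8% against 33.8%. The nuclear receptor motif was found at 19.4% against 14% and the estrogen-related receptor motif at 3.23% against 4.08%. The TATA box stood at 6.45% against 12.4% and the E-box at 3.23% against 6.02%. The vitamin D receptor repeat was found at 0 of 31 starts and at 0.0396% of all promoters.

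Facts of the whole series that touch these genes are few. Total counts were 10.79 M to 21.34 M, the highest in knockout replicate 1, and levels are given as CPM, the count of a gene relative to all counts of its library, after TMM scaling (trimmed mean of M-values, a correction for library composition). Vdr itself had 5 and 0 counts in the WT libraries and 5 and 1 in the knockout libraries, so it does not check the labels at this depth. All 10 markers of muscle fibres were present, with a summed level of 82420 to 94200 CPM. Sex-linked RNAs put the genotypes in opposite sexes: Xist stood at 183 and 217 CPM in WT and at 0 and 0.256 CPM in the knockout, so genotype and sex cannot be told apart here. The Y-linked Ddx3y stood at 75.8 and 63.0 CPM in the knockout, and it was also present in WT replicate 1, at 4.74 CPM, and at 0 in WT replicate 2. Markers of fat cells were higher in the knockout, with a summed level of 1108 and 1370 CPM in WT replicates 1 and 2 against 4622 and 4211 CPM in knockout replicates 1 and 2. Of these 14 markers 10 were called higher and none was at 0 in any library. Of 5 markers of red blood cells 2 were called higher, with summed levels of 243 and 266 CPM against 549 and 389 CPM. The part of the fat-cell and red-cell RNA in the differences below was not tested. In whole muscle more cells of a type and more RNA per cell cannot be told apart.

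Of the 30 genes, 3 were higher in the knockout and none was lower at an adjusted p below 0.05 in edgeR's quasi-likelihood test. The 3 were Gpt, cytosolic alanine aminotransferase, Bcat2, which starts branched-chain breakdown, and Pccb, the beta subunit of propionyl-CoA carboxylase. They make 10% of the 30, where 1.61% of the 13076 tested genes were called higher and 0.413% lower. At an unadjusted p below 0.05, 11 of the 30 (36.7%) were higher, against 8.08% of all tested genes, and 0 were lower, against 5.9%. DESeq2 called the same 3 genes higher and 0 lower. Of the 11669 genes to which it gave an adjusted p, it called 220 higher and 77 lower. The log2 fold change was above 0 for 26 of 30 genes (49.9% of all tested genes), and its median was 0.27, against -0.0007 over all tested genes. Both knockout libraries lay above both WT libraries for 14 of the 30 (23% of all tested genes), both lay below for 1 gene, Mcee (21.7%), and the groups overlapped for 15.

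**Figure D1:**
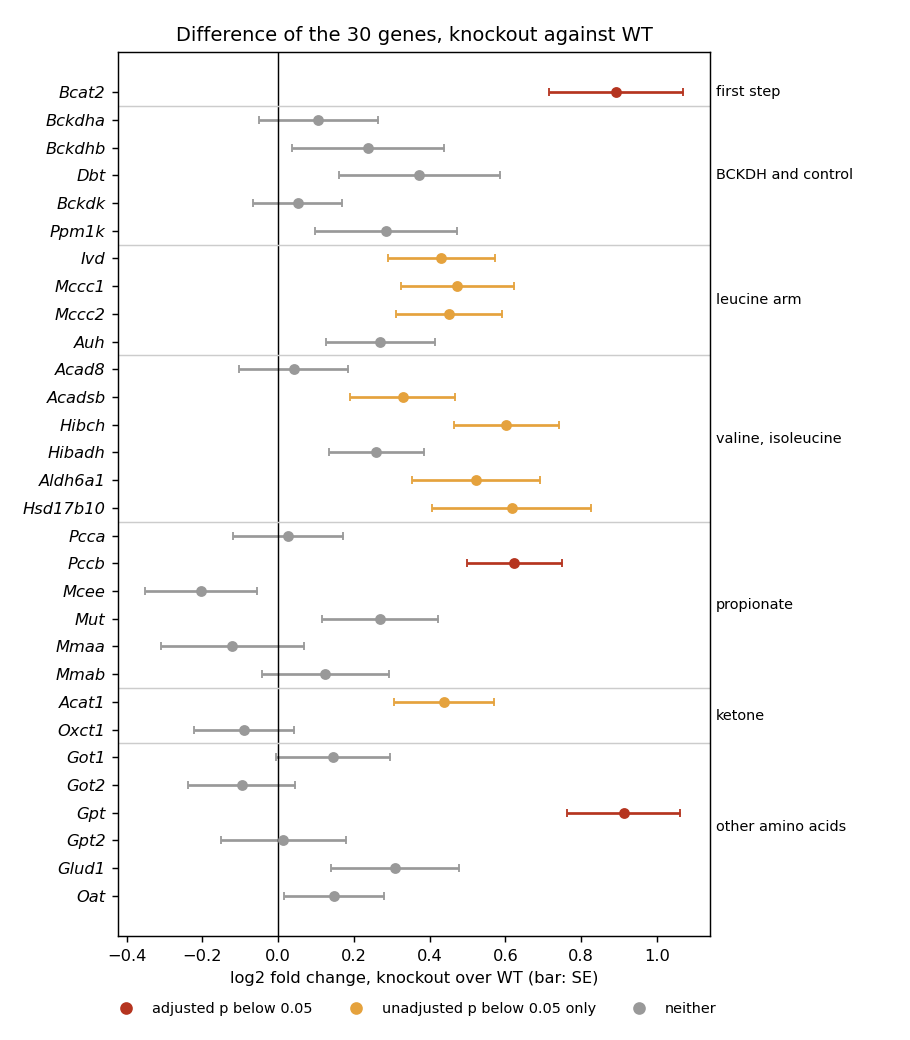
Difference of each of the 30 genes between knockout and WT, on the horizontal axis as log2 fold change with bars of 1 SE (2 libraries a group), with genes in rows by role. Dark red marks the 3 genes with an adjusted p below 0.05 (Bcat2, Pccb, Gpt) and orange the 8 others with an unadjusted p below 0.05, all to the right of 0.

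The libraries of a group did not hold these genes at 1 common level. Knockout replicate 1 was the highest of the 4 libraries for 20 of the 30 genes (66.7%; 25% of all tested genes), and WT replicate 2 was the lowest for 19 (63.3%; 22.5%). Each gene was set against its own mean over the 4 libraries on the log2 scale. The median deviation of the 30 genes was then -0.07 in WT replicate 1, -0.20 in WT replicate 2, 0.26 in knockout replicate 1 and 0.01 in knockout replicate 2. Thus knockout replicate 2 sat close to WT replicate 1, and knockout replicate 1 stood above the rest. Within groups, replicate 1 was above replicate 2 for 25 of 30 genes in the knockout and for 23 of 30 in WT, where all tested genes gave 50% in each. Without knockout replicate 1 the median log2 fold change of the 30 genes was 0.10. Without knockout replicate 2 the median was 0.45.

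Markers of other cell types and of fibre type are given here beside this order. The summed level of the fat-cell markers was 4622 and 4211 CPM in knockout replicates 1 and 2, and within WT the sum was higher in replicate 2. Single fat-cell markers differed between the knockout libraries in both directions. Cfd stood at 2142 and 1607 CPM in knockout replicates 1 and 2, Plin1 at 95.6 and 144 CPM and Lep at 10.6 and 21.3 CPM. RNAs of oxidative fibres were higher in knockout replicate 1 than in knockout replicate 2. Myh2, a fast oxidative myosin, stood at 370 and 171 CPM in knockout replicates 1 and 2, and at 258 and 292 CPM in WT. Mb, myoglobin, stood at 646 and 410 CPM in the knockout and at 580 and 517 CPM in WT, and neither gene was called (edgeR adjusted p = 0.99 and 0.946). Summed red-cell markers stood at 243 and 266 CPM in WT replicates 1 and 2 and at 549 and 389 CPM in knockout replicates 1 and 2. Within WT, Myh2 and the red-cell sum were higher in replicate 2, and Mb was higher in replicate 1. The part of fibre makeup, fat-cell RNA and red-cell RNA in the levels of the 30 genes was not tested.

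**Figure D2:**
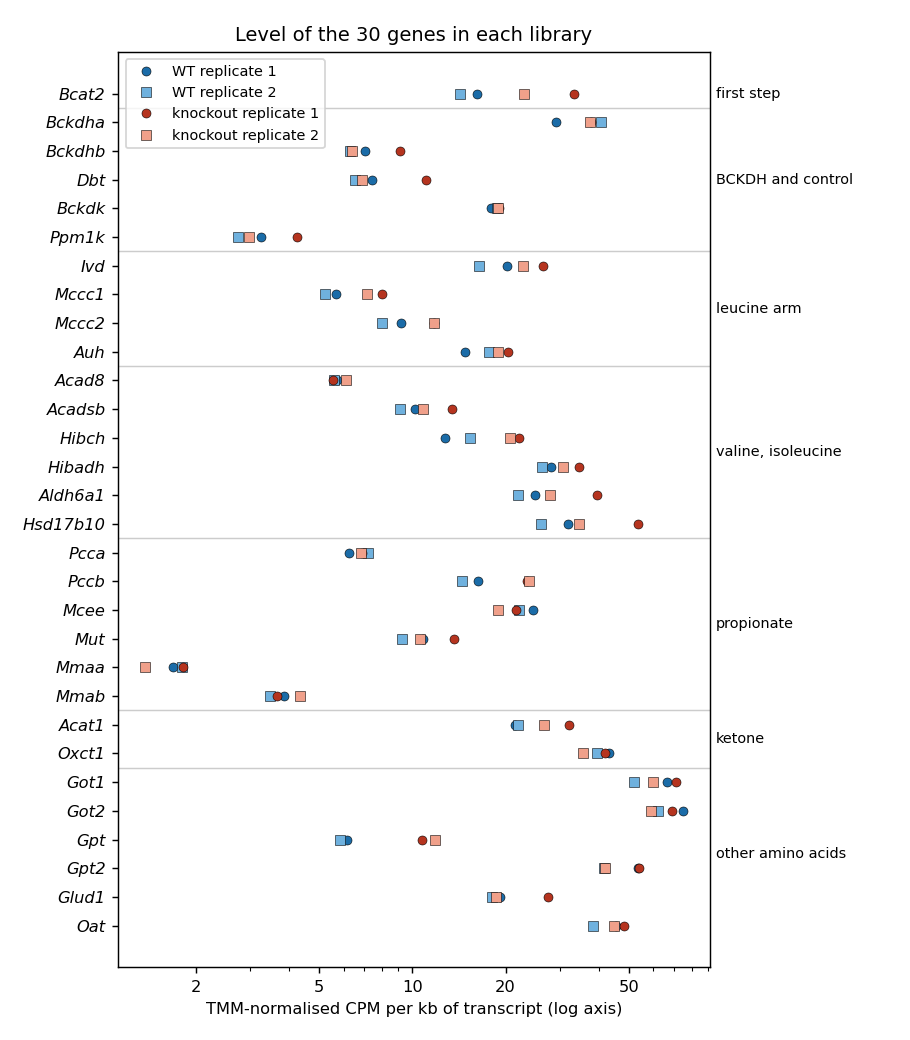
Level of each of the 30 genes in each of the 4 libraries, as TMM-normalised CPM per kilobase of its principal transcript on a log axis, with genes in rows by role. Blue marks WT and red the knockout, and the dark red points of knockout replicate 1 are the rightmost for 20 genes.

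Compared per kilobase of transcript, 4 of the 6 aminotransferases (Got2, Got1, Gpt2 and Oat) had the highest WT levels of the 30. In WT, Got2 and Got1, the mitochondrial and cytosolic aspartate aminotransferases, stood at 68.5 ± 8.86 and 59.2 ± 10.0 CPM per kb (mean ± SD, n = 2), followed by Gpt2, mitochondrial alanine aminotransferase, at 47.5 ± 8.61. The lowest were Mmaa, which guards the cobalamin of the mutase (1.75 ± 0.081), and Ppm1k (2.99 ± 0.355). The highest level was 39.1 times the lowest. Of the 29 pairs of neighbours in this order, 19 had overlapping WT values, so much of the order is not resolved. The top 8, from Got2 to Hibadh, each overlapped with the next but for the last, and Gpt, ranked 25, lay apart from both its neighbours.

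Bcat2 carries out the first step (chromosome 7, 45570153 to 45589711, plus strand). Its level was 28.6 and 25.2 CPM in WT replicates 1 and 2 and 58.9 and 40.5 CPM in knockout replicates 1 and 2. The groups did not overlap, and the knockout libraries lay further from each other than the WT libraries did. Bcat2 rose 1.85-fold, from 26.9 ± 2.42 to 49.7 ± 13.0 CPM (mean ± SD, n = 2; log2 fold change 0.89 ± 0.18 SE, edgeR adjusted p = 0.0325). With WT replicate 2 or knockout replicate 1 left out, Bcat2 was no longer called (0.80 and 0.59). Its cytosolic relative Bcat1, which acts mainly outside muscle, stayed at 0.856 to 2.42 CPM and was not called (edgeR adjusted p = 0.742).

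The committing complex and its control held no called gene among 5, where 2.03% of all tested genes were called. Bckdha and Bckdhb encode the alpha and beta subunits of the decarboxylase, and Dbt the core acyltransferase. Bckdha (chromosome 7, 25629946 to 25658981) had 55.4 and 77.1 CPM in WT against 71.6 and 71.1 CPM in the knockout, and the knockout values fell between those of WT. Bckdhb had 10.3 and 9.29 CPM against 13.5 and 9.38 CPM. Dbt had 24.5 and 21.5 CPM against 36.5 and 22.7 CPM. In both genes knockout replicate 1 was high and knockout replicate 2 lay within the range of WT. Their log2 fold changes were 0.11 ± 0.16, 0.24 ± 0.20 and 0.37 ± 0.21 in the order named, with edgeR adjusted p from 0.501 to 0.839.

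The opposing regulators of the complex differed from each other in spread. Bckdk, the kinase, had 61.1 and 63.8 CPM in WT against 64.9 and 64.6 CPM in the knockout, a log2 fold change of 0.05 ± 0.12 (edgeR adjusted p = 0.902). Ppm1k, the phosphatase, had 18.0 and 15.2 CPM against 23.7 and 16.5 CPM (0.29 ± 0.19, edgeR adjusted p = 0.559). The kinase had the smallest SE of the 5 genes, and the phosphatase overlapped between groups. Per kilobase, the RNA of the kinase was 5.54 and 6.84 times that of the phosphatase in WT and 4.48 and 6.41 times in the knockout, with overlapping groups.

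For all 4 genes of the leucine arm both knockout libraries lay above both of WT (23% of all tested genes). None of them passed the adjusted test, which 2.03% of all tested genes passed. Ivd, isovaleryl-CoA dehydrogenase, had 73.9 and 60.1 CPM in WT against 96.9 and 83.6 CPM in the knockout (log2 fold change 0.43 ± 0.14, edgeR adjusted p = 0.189). Mccc1 and Mccc2 encode the biotin-carrying and the carboxyl-transferring subunit of methylcrotonyl-CoA carboxylase. Mccc1 had 13.9 and 12.9 CPM against 19.5 and 17.6 CPM (0.47 ± 0.15, edgeR adjusted p = 0.165). Mccc2 had 19.5 and 17.0 CPM against 24.9 and 25.0 CPM (0.45 ± 0.14, edgeR adjusted p = 0.16). The subunits differed by like amounts, and the ratio of Mccc2 to Mccc1 per kilobase was 1.57 ± 0.066 in WT and 1.56 ± 0.12 in the knockout. Auh, the hydratase of the next step, had the smallest log2 fold change of the arm (0.27 ± 0.14).

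In the valine and isoleucine arm, all 6 genes had a log2 fold change above 0 (49.9% of all tested genes). For 5 of them both knockout libraries lay above both of WT (23% of all tested genes). None was called (2.03% of all tested genes). Hibch removes CoA from the valine intermediate 3-hydroxyisobutyryl-CoA (chromosome 1, 52844929 to 52920986). It had 23.3 and 28.1 CPM in WT against 40.4 and 37.7 CPM in the knockout, a log2 fold change of 0.60 ± 0.14 that missed the threshold (edgeR adjusted p = 0.0597). Its log2 fold change stayed between 0.48 and 0.74 with any 1 library left out, and it was called without WT replicate 2. Aldh6a1, the dehydrogenase that ends the valine arm in propionyl-CoA, had 84.8 and 74.6 CPM against 134 and 94.3 CPM (0.52 ± 0.17, edgeR adjusted p = 0.176). Hibadh and Acadsb, the dehydrogenases of 3-hydroxyisobutyrate and of the isoleucine product 2-methylbutyryl-CoA, had log2 fold changes of 0.26 and 0.33. Acad8, isobutyryl-CoA dehydrogenase, overlapped between groups (0.04 ± 0.14).

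Hsd17b10 encodes the isoleucine dehydrogenase of this arm, which is also a subunit of mitochondrial RNase P, and lies on the X chromosome (152001845 to 152004442). It had 30.6 and 25.1 CPM in WT against 51.7 and 33.2 CPM in the knockout (log2 fold change 0.62 ± 0.21, edgeR adjusted p = 0.231). Knockout replicate 1 was far above the other 3 libraries. Hsd17b10 and Aldh6a1 were called without knockout replicate 2 (0.90 and 0.76) and fell to log2 fold changes of 0.25 and 0.24 without knockout replicate 1. Hsd17b10 is the only X-linked gene of the 30, and the libraries were of opposite sex.

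Among the 6 genes of propionate use, Pccb alone was called, where 2.03% of all tested genes were called. Pccb (chromosome 9, 100982032 to 101034898, minus strand) had 37.7 and 33.5 CPM in WT against 54.5 and 55.1 CPM in the knockout. Both knockout libraries agreed closely and lay well above WT. It rose 1.54-fold, from 35.6 ± 2.999 to 54.8 ± 0.398 CPM (mean ± SD, n = 2; log2 fold change 0.62 ± 0.13 SE, edgeR adjusted p = 0.0335). The size hardly moved with 1 library left out (0.54 to 0.71), but Pccb was called in only 1 of the 4 such runs and missed the threshold without WT replicate 2 (0.54) and without either knockout library (0.63 and 0.62).

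Pcca, which encodes the biotin-carrying alpha subunit that pairs with the product of Pccb, had 16.2 and 18.7 CPM in WT against 17.9 and 17.7 CPM in the knockout. The groups overlapped, with a log2 fold change of 0.03 ± 0.15 (edgeR adjusted p = 0.965). The promoters of these partners are shown above. Per kilobase, Pccb RNA was 2.60 and 2.01 times that of Pcca in WT and 3.41 and 3.49 times in the knockout, so the ratio did not overlap between groups. With 2 libraries against 2, the smallest two-sided p of an exact permutation test is 0.333, so the ratios of partner genes are given as a description, with no test.

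None of the 4 genes for the steps after the carboxylase was called (2.03% of all tested genes). Mcee, the epimerase, had 20.4 and 18.3 CPM in WT against 17.9 and 15.6 CPM in the knockout (log2 fold change -0.20 ± 0.15, edgeR adjusted p = 0.611), the only one of the 30 with both knockout values below WT. Mut, the cobalamin-dependent methylmalonyl-CoA mutase, had 39.8 and 34.1 CPM in WT against 50 and 38.8 CPM in the knockout (0.27 ± 0.15, edgeR adjusted p = 0.49). Its groups overlapped, and so did those of Mmaa (-0.12 ± 0.19) and Mmab, which makes the active form of cobalamin (0.12 ± 0.17).

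**Figure D3:**
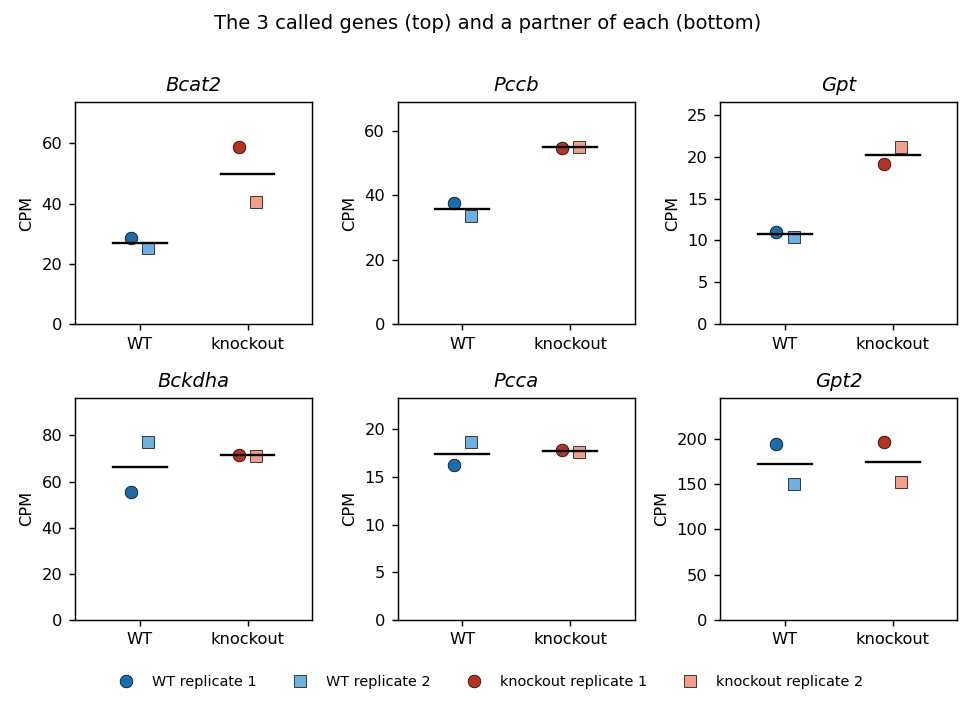
Level in CPM, from 0, of the 3 called genes (top row: Bcat2, Pccb, Gpt) and below each the gene of the next step or the partner (Bckdha, Pcca, Gpt2). Points are the 2 libraries of each group and lines their means. The groups are apart in the top row and overlap in the bottom row.

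Of the pair of ketone genes, Acat1 was higher in both knockout libraries and Oxct1 was not. Acat1, which cleaves acetoacetyl-CoA and also ends the isoleucine arm, had 73.1 and 74.4 CPM in WT against 109 and 90.5 CPM in the knockout (log2 fold change 0.44 ± 0.13, edgeR adjusted p = 0.146). Oxct1, which activates acetoacetate for use, had 152 and 139 CPM against 148 and 126 CPM (-0.09 ± 0.13, edgeR adjusted p = 0.836). The ratio of Acat1 to Oxct1 per kilobase was 0.526 ± 0.041 in WT and 0.756 ± 0.013 in the knockout, with no overlap.

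Among the other amino acid enzymes, Gpt was the only one called (2.03% of all tested genes) and had the largest log2 fold change of the 30. Gpt (chromosome 15, 76695716 to 76699686, plus strand) encodes the cytosolic enzyme that passes amino groups between glutamate and alanine. It had 10.99 and 10.5 CPM in WT against 19.2 and 21.2 CPM in the knockout, with close agreement within groups. Gpt rose 1.88-fold, from 10.7 ± 0.38 to 20.2 ± 1.43 CPM (mean ± SD, n = 2; log2 fold change 0.91 ± 0.15 SE, edgeR adjusted p = 0.0121). It stayed called whichever library was left out, with log2 fold changes from 0.84 to 0.98 and edgeR adjusted p from 0.0222 to 0.0457, and here knockout replicate 2 was the higher one.

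The mitochondrial form was not called. Gpt2 had 195 and 151 CPM in WT against 197 and 152 CPM in the knockout (log2 fold change 0.01 ± 0.17, edgeR adjusted p = 0.981). Per kilobase, Gpt RNA was 0.114 and 0.141 times that of Gpt2 in WT and 0.198 and 0.283 times in the knockout, so Gpt2 remained the more abundant form in every library. Liver is rich in Gpt, and the liver markers Alb, Apoa1, Ttr, Cps1, Tat and Hpd together reached 1.56 to 2.94 CPM. Of these 6 markers, 4 were at 0 in at least 1 library. Which cells the Gpt RNA came from was not tested.

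Gpt also lies near Vdr, 21.1 Mb away on chromosome 15. Of 354 tested genes within 30 Mb of Vdr 12 were called (3.39%), 11 of them higher, against 2.03% of all tested genes. Gpt is among these 12. Within 20 Mb, which leaves Gpt out, 8 of 278 were called (2.88%), and within 10 Mb 4 of 154 (2.6%). On chromosome 15 beyond 30 Mb, 3 of 160 were called (1.88%). Whether DNA of the 129 strain flanks the Vdr allele as far as Gpt was not tested.

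Got1 and Got2 exchange amino groups with aspartate on either side of the mitochondrial membrane. Got1 had 137 and 107 CPM in WT against 146 and 123 CPM in the knockout (log2 fold change 0.14 ± 0.15, edgeR adjusted p = 0.751). Got2 had 189 and 157 CPM against 175 and 149 CPM (-0.10 ± 0.14, edgeR adjusted p = 0.837). Each overlapped between groups, while their ratio per kilobase was 0.863 ± 0.035 in WT and 1.02 ± 0.013 in the knockout and did not. Glud1, glutamate dehydrogenase, had 64.9 and 61.3 CPM in WT against 92.7 and 63.3 CPM in the knockout (0.31 ± 0.17, edgeR adjusted p = 0.478), and its log2 fold change was -0.0004 without knockout replicate 1. Oat, ornithine aminotransferase, had 98.1 and 82.4 CPM against 104 and 96.1 CPM (0.15 ± 0.13, edgeR adjusted p = 0.696).

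**Figure D4:**
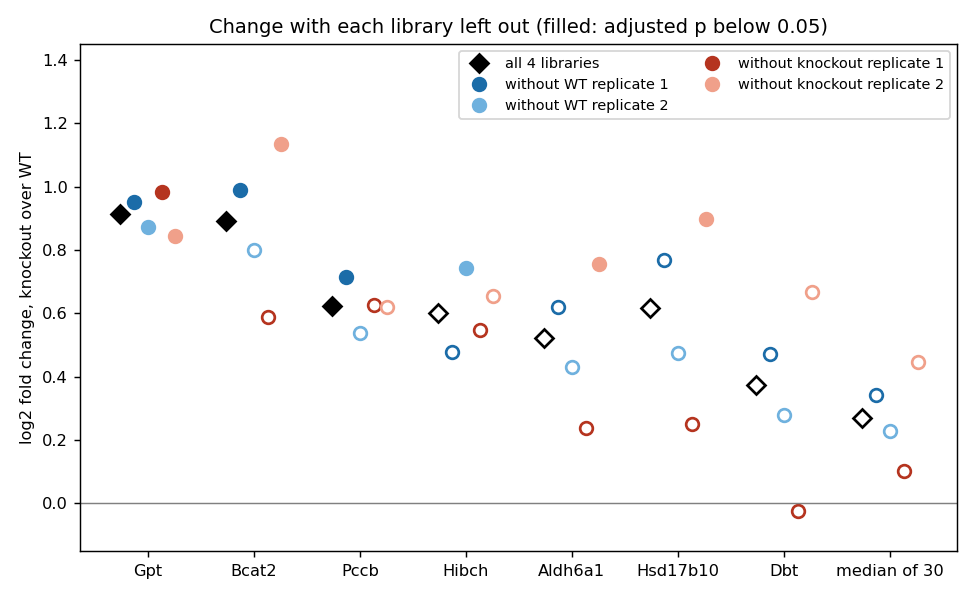
Log2 fold change (knockout over WT) of 7 genes and of the median of the 30, with all 4 libraries (black diamonds) and with each library left out (circles). Filled symbols have an adjusted p below 0.05, and the median has no test. Gpt is filled throughout, and without knockout replicate 1 the median is 0.10.

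A list of 52 other genes around this route held 51 tested genes. Of these, 1 was called higher and none lower (1.61% and 0.413% of all tested genes). At an unadjusted p below 0.05, 15 were higher and 1 lower (8.08% and 5.9% of all tested genes), and DESeq2 called 2 higher and 0 lower. The median log2 fold change of the 51 was 0.23, and 35 were above 0 (49.9% of all tested genes).

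Of the carriers that bring branched-chain amino acids into cells and mitochondria, Slc43a1, which moves large neutral amino acids across the plasma membrane, came nearest to a call. It had 12.4 and 9.68 CPM in WT against 17.3 and 22.4 CPM in the knockout (log2 fold change 0.84 ± 0.19, edgeR adjusted p = 0.0502). Slc25a44, the mitochondrial carrier of branched-chain amino acids, had 15.8 and 16.5 CPM against 22.6 and 23.2 CPM (0.50 ± 0.14, edgeR adjusted p = 0.111). The libraries of a group agreed closely for Slc25a44, and the groups did not overlap. None of the 7 carriers listed was called (2.03% of all tested genes), and 6 had a log2 fold change above 0 (49.9%). The 1 below 0 was Slc7a5, with 1.71 and 2.65 CPM in WT against 1.47 and 0.853 CPM in the knockout (-0.84 ± 0.40, edgeR adjusted p = 0.395). Etfb, a subunit of the flavoprotein that takes electrons from the acyl-CoA dehydrogenases of these arms, had 4.36 and 5.07 CPM against 8.46 and 8.78 CPM (0.86 ± 0.20, edgeR adjusted p = 0.059). Klf15, a transcription factor known to drive Bcat2 in muscle, had 27.6 and 20.3 CPM against 31.4 and 29.2 CPM (0.35 ± 0.16, edgeR adjusted p = 0.38).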

How the data were processed

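RNA of 4 quadriceps libraries was analysed. The authors deposited raw read counts for each Ensembl gene, 1 file per library. The submitters' processing notes name Trimmomatic (trimming), STAR (alignment) and DESeq2, and the build GRCm38 (mm10). Versions and multi-mapping settings, not given in the sources used here, can change the counts of near-identical genes. Symbols and coordinates came from GENCODE M21 (99.83% of IDs matched). Of 462 genes lying wholly within opposite-strand exons 121 had counts, against 1 of 608 within same-strand exons, so strands were counted apart. Opposite-strand exons of B3gnt8 cover 61.7% of the exon bases of Bckdha.

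Genes were kept by filterByExpr of edgeR 4.0.16 (R 4.3.3; minimum count 10, minimum total 15), which left 13076, and scaled by TMM. Knockout and WT were compared with the quasi-likelihood F test (robust, quasi-dispersions of edgeR 4), genotype as the only term, Benjamini-Hochberg adjustment over all tested genes, and calls at an adjusted p below 0.05. Standard errors were derived from the F statistic. The labels do not say that replicates are separate animals, so p-values measure the spread between libraries, which may be technical. Levels per kb use the longest principal transcript. Promoters came from RefSeq (GRCm38.p6). The fit was tested on simulated data. Alternatives were DESeq2 1.42.0, other scalings and filters, a replicate block and leaving out each library. The labels do not say that a replicate number is shared between groups, so the numbers were not taken as pairs. Over all tested genes, the deviations of same-numbered libraries had a correlation of 0.038. Among the 30 genes, replicate 1 was above replicate 2 for 25 in the knockout and for 23 in WT.

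The genes and lists were chosen with earlier results of these data known. Values in every library are given for called genes, for the 2 of each role with the smallest p, for the BCKDH genes and for the Got and Gpt pairs. Of the 52 other genes the rule names called ones, the 3 with the smallest p, Bcat1, Slc25a44 and Klf15. Some genes of these lists are counted but not reported here by name. Values printed for further genes were chosen after they were seen.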

Additional observations from a re-analysis of the deposited data

How the results depend on the processing

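All 3 calls (Bcat2, Pccb, Gpt) remained with RLE size factors, without mt-Rnr1, mt-Rnr2 and Rn7sk, in DESeq2, with the replicate block, without the low-count filter and, as settings added after the data were seen, without genes on chromosomes X and Y and with edgeR's legacy quasi-dispersions. Hibch joined them in the last of these and without the filter. With 1 library left out, the calls of Bcat2 and Pccb did not remain in every run, as given above. The median log2 fold change of the 30 genes then ran from 0.10 (without knockout replicate 1) to 0.45 (without knockout replicate 2). Over all genes, 476 were called without the filter (355 higher, 121 lower) against 265 (211 and 54), and 39 to 90 were lower with 1 library left out. Of the other amino acid genes, 2 were called in DESeq2 and with the replicate block, 4 without the filter, 3 with legacy quasi-dispersions and 1 to 5 with 1 library left out. The replicate block gave 346 calls over all genes and changed no other call among the 30. The signs of 12 of the 30 genes, none of them called, and of Bcat1 turned in some run. With WT replicate 1 left out Bckdha was at -0.11, Pcca at -0.068 and Got2 at 0.044. With WT replicate 2 left out Got1 was at -0.022, Gpt2 at -0.16 and Bcat1 at 0.10. With knockout replicate 1 left out Bckdhb was at -0.066, Dbt at -0.025, Ppm1k at -0.015, Gpt2 at -0.19, Glud1 at -0.0004 and Bcat1 at 0.13. With knockout replicate 2 left out Acad8 was at -0.026, Mmaa at 0.055, Oxct1 at 0.024 and Got2 at 0.015. At the other end of the runs stood Bckdha (0.36), Bckdhb (0.46), Dbt (0.67), Ppm1k (0.52), Acad8 (0.11), Pcca (0.13), Mmaa (-0.36), Oxct1 (-0.22), Got1 (0.33), Got2 (-0.23), Gpt2 (0.21), Glud1 (0.56) and Bcat1 (-1.11). The cause of these shifts was not tested.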

Other observations

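Some other genes of amino acid and ketone metabolism, chosen after their values were seen, were highest in knockout replicate 1. Asns, asparagine synthetase, had 3.51 and 4.68 CPM in WT replicates 1 and 2 and 16.4 and 6.91 CPM in knockout replicates 1 and 2 (log2 fold change 1.53 ± 0.47, edgeR adjusted p = 0.258). Glul, glutamine synthetase, had 435 and 311 CPM in WT against 762 and 422 CPM in the knockout, so knockout replicate 2 lay within the WT range (0.67 ± 0.34, edgeR adjusted p = 0.498). Prodh, proline dehydrogenase, which breaks proline down, showed the same order with 6.92 and 5.54 CPM against 17.1 and 6.74 CPM (0.98 ± 0.51, edgeR adjusted p = 0.509). Aacs, which activates acetoacetate in the cytosol for lipid synthesis, had 11.7 and 16.9 CPM against 55.0 and 23.4 CPM (1.47 ± 0.59, edgeR adjusted p = 0.471). None of the 4 was called.

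Tcn2, the plasma carrier of cobalamin, had 18.1 and 21.1 CPM against 44.5 and 28.5 CPM (0.90 ± 0.21, edgeR adjusted p = 0.0693). Its groups did not overlap, and knockout replicate 1 was again the highest.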
